A study of Mus musculus with 6 samples.

Results

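Solute carriers were represented by 146 of the 8251 named genes on the arrays. They were chosen as the probe sets whose single platform-annotation gene symbol begins with Slc and a digit, leaving out Slc1a2, Slc1a3, Slc4a2, Slc6a13, Slc12a2, Slc17a6 and Slc32a1, and each gene was kept as its probe set with the highest mean log2 value. The samples were 6 portions of mouse hippocampal total RNA, each on its own oligonucleotide array, in a series on HuD overexpressor mice. HuD is a neuronal protein that binds RNA and is the product of Elavl4. No label gives the genotype, strain, age, promoter of the transgene or pooling of any sample, so each sample goes by its title's number, none is called transgenic or control, and no test between groups was made. A difference between single samples therefore has no replicate check. A further code in the titles differs for sample 2 alone, and the labels do not explain it. Of 9 hippocampal neuron markers measured, 8 lay above the array median, among them Neurod2, Neurod6, Camk2a and Zbtb20, and Prox1 lay under it.

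Solute carriers are membrane proteins that move ions, sugars, amino acids, nucleotides, metals, vitamins and lipids across the plasma membrane or the membranes of organelles, mostly as exchangers or by coupling to an ion gradient. In the hippocampus they are known for clearing and recycling transmitters, setting the chloride gradient that decides the sign of GABA responses, extruding calcium, buffering pH, and supplying neurons and glia with glucose, lactate and amino acids. The symbol rule also took in 3 genes that encode adaptors or scaffolds and no carrier: Slc9a3r1, Slc9a3r2 and Slc4a1ap.

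The deposited values are signal intensities on a linear scale. They were scaled by the median of their array, which is 0 on the log2 scale, and a gene whose middle value over the 6 samples exceeded 0 is called expressed. That held for 80 of the 146 solute carriers. Of these, 74 lay above the array median in all 6 samples. Range stands here for the log2 difference from the lowest sample to the highest. The median range of the 80 expressed solute carriers was 0.41 on the log2 scale (1.33-fold), with quartiles of 0.28 and 0.56. For all 4838 expressed genes the median was 0.40 and the quartiles were 0.29 and 0.57. A range over 1 was reached by 3 solute carriers, Slc25a45, Slc12a5 and Slc10a3, or 3.75%, against 4.13% of all expressed genes. A range over 0.5, a threshold chosen after the values were seen, was reached by 26, or 32.5%, against 33.8% of all expressed genes. Both shares lay near the background.

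**Figure D1:**
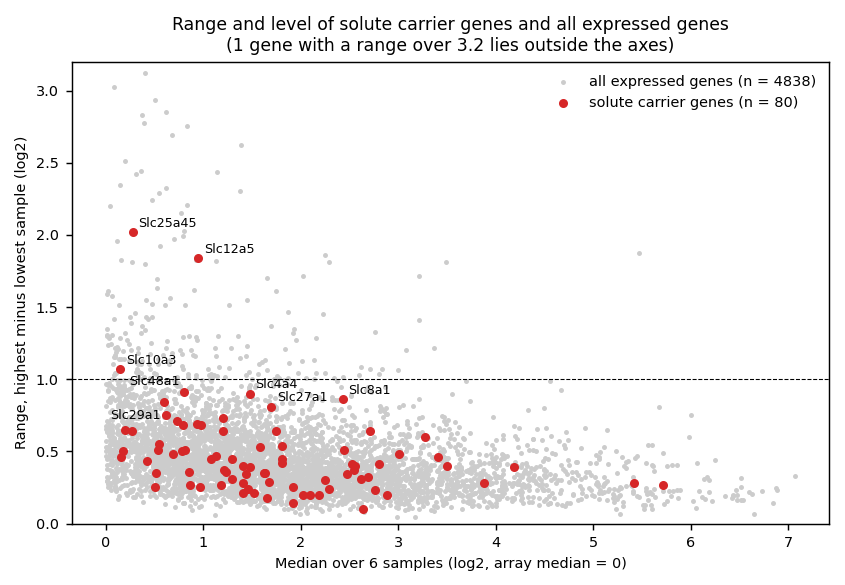
Range over the 6 samples (log2, vertical axis) against the median level (log2, array median at 0, horizontal axis) for 80 expressed solute carrier genes (red) and all 4838 expressed genes (grey). The dashed line marks a range of 1. Only Slc25a45, Slc12a5 and Slc10a3 among the red points lie above it, and 1 grey point lies outside the axes.

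Ion carriers had the highest median range of the 8 role groups (0.55, 9 of 18 genes expressed). A range over 0.5 was reached by 5 of the 9 (55.6%, against 33.8% of all expressed genes), of which Slc12a5, Slc8a1 and Slc4a4 encode carriers and Slc9a3r2 and Slc4a1ap, whose range is the median, do not. Slc12a5 encodes KCC2, the potassium-chloride cotransporter that keeps chloride low in mature neurons. Its signal was 83.1, 141, 46.9, 141, 177 and 106 in samples 1 to 6. Sample 3 was lowest and lay under the array median, sample 1 was next, and sample 5 was highest. The range was 3.58-fold after scaling, 2.80-fold with sample 3 counted at the array median, and 1.08 on the log2 scale without sample 3, against 1.84 with it. Slc8a1 encodes the sodium-calcium exchanger NCX1, which extrudes calcium. Its signal was 227, 355, 198, 325, 377 and 356 in samples 1 to 6, again lowest in samples 3 and 1 and highest in sample 5 (1.81-fold). Slc4a4 encodes the sodium-bicarbonate cotransporter NBCe1, which astrocytes use to buffer pH. It measured 151, 177, 92.7, 182, 180 and 172 in samples 1 to 6. Here sample 3 alone stood apart below the others, and the range of 0.90 became 0.27 without it.

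The order of Slc12a5 over the samples was close to that of Camk2a, the kinase subunit of excitatory synapses, which had signals of 412, 845, 275, 865, 1016 and 579 in samples 1 to 6. Not all the hippocampal neuron markers ran this way. Of the 8 expressed ones, 3 were lowest in sample 3 after scaling, Camk2a among them, and 2, Neurod2 and Neurod6, were highest there. For the pyruvate carboxylase control the 3' signal over the 5' signal, a measure of how far RNA was copied towards its 5' end, was 2.35, 1.57, 3.56, 1.97, 1.62 and 2.61, highest in sample 3. The transferrin receptor ratio was also highest in sample 3 (3.47), whereas the beta-actin ratio was highest in sample 1 (1.27). The part of these ratios in the low values of Slc12a5, Slc8a1 and Slc4a4 was not tested. In all, samples 1 and 3 were the 2 lowest for 4 solute carriers, these 3 and the mitochondrial carrier Slc25a36. That is 5.0% of the expressed solute carriers, near the 7.03% of all expressed genes, a pattern counted after the values were seen. All 4 kept these 2 lowest samples in the deposited values and with quantile normalization, where Slc1a4 and Slc3a2 joined them. The share of all expressed genes was not counted for these settings.

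Because these 3 ion carriers shared their lowest sample, the 250 bases upstream of each of their start sites are shown from the RefSeq promoter table (mouse GRCm38.p6), 5' to 3' on the strand of the gene, with the number of start sites as that table lists them. Capitals mark matches, on either strand, to GGGCGG, which is called a GC box here, to the box named by its letters CCAAT, to TATAAA of the TATA box, to TGACGTCA of the cyclic AMP response element (CRE), or to the E box CACGTG. No matches overlapped.
Slc12a5, upstream start, chr2:164960596-164960845, plus strand: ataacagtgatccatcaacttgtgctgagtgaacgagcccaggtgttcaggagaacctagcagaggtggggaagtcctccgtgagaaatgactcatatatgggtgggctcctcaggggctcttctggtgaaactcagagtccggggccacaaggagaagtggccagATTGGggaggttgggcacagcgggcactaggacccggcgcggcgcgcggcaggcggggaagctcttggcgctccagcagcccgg
Slc12a5, downstream start, chr2:164967738-164967987, plus strand: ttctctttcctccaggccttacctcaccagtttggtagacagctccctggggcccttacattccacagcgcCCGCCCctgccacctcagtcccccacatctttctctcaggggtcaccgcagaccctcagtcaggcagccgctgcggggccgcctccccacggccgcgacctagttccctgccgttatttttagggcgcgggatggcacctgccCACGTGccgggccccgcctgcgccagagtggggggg
Slc8a1, chr17:81738388-81738637, minus strand: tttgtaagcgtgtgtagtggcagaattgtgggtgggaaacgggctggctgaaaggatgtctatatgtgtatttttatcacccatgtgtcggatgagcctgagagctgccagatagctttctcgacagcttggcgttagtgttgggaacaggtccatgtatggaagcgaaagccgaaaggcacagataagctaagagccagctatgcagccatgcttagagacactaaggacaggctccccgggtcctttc
Slc4a4, upstream start, chr5:88887010-88887259, plus strand: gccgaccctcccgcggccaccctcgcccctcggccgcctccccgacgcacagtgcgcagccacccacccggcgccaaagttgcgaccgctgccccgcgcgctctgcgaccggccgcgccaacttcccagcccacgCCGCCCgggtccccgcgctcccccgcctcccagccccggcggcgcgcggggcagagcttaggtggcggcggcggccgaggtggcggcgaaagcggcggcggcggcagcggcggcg
Slc4a4, downstream start, chr5:89027716-89027965, plus strand: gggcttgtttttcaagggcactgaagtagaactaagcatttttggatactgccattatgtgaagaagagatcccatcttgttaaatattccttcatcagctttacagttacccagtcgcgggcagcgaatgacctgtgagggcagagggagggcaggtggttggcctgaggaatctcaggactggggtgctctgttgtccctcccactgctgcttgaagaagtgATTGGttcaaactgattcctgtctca
The windows had little in common. A GC box was found at the downstream start of Slc12a5 and the upstream start of Slc4a4, a CCAAT box at the upstream start of Slc12a5 and the downstream start of Slc4a4, an E box only at the downstream start of Slc12a5, and none of the 5 motifs at Slc8a1. Their GC content ran from 48.8% at the downstream start of Slc4a4 to 82.0% at its upstream start. Of all 32851 windows of this length in the table, 32.7% held a GC box, 33.8% a CCAAT box, 12.4% a TATA box, 1.55% a CRE and 6.02% an E box. Among the 94 start sites listed for 66 of the expressed solute carriers, a GC box was present in 68.1%, a CCAAT box in 28.7%, a TATA box in 3.19%, a CRE in 2.13% and an E box in 10.6%, and the median GC content was 60.4% against 52.4% for all windows. The shares over all windows were not limited to expressed genes, as those for the solute carriers were, and no share for all expressed genes was counted. A match is a description of the letters and not a shown binding site, and which start the arrays read was not examined.

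The other ion carriers varied less. The scaffold gene Slc9a3r2 ranged 1.56-fold, with sample 4 lowest at 64.5 and sample 5 highest. Slc4a1ap, another adaptor gene, was highest in sample 3 at 115 and lowest in sample 6 at 82.2 (1.46-fold). The anion exchanger Slc4a3 had signals between 610 and 763 (1.32-fold), and the scaffold Slc9a3r1 between 308 and 369 (1.27-fold). Slc9a8, a sodium-proton exchanger of the Golgi, stood apart in sample 6 at 201 against 159 to 172 in the others. Slc12a4, the widely expressed potassium-chloride cotransporter KCC1, lay between 105 and 124 (1.21-fold), and did not share the low value of Slc12a5 in sample 3, where it stood at 113.

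Among transmitter and related carriers, 7 of 16 genes were expressed, with a median range of 0.37 and none over 1. Slc6a20b, of the family of carriers of proline and other imino acids, was the widest. It had signals of 167, 172, 122, 107, 125 and 164 in samples 1 to 6. Samples 1, 2 and 6 formed the higher set and samples 3, 4 and 5 the lower one, with no value between 125 and 164. Its paralog Slc6a20a is closely related, and whether the probe set reads it as well was not tested. The 7 expressed markers of meninges and fibroblasts, of 8 on the array, had scores of -0.01, 0.10, -0.17, -0.15, -0.11 and 0.22 in samples 1 to 6, a score being the median log2 deviation of the listed genes from their own medians. Their summed signal ran from 3276 in sample 5 to 7071 in sample 2, with 6263 in sample 1 and 6050 in sample 6. Most of that sum was Ptgds, a prostaglandin synthase, at 4057, 4699, 1757, 2196, 1317 and 3582, and Dcn, the proteoglycan decorin, measured 669, 703, 432, 315, 445 and 619. Not all the markers ran this way: Igf2 (471 in sample 1, 575 in sample 4), Igfbp2 (188 and 209) and Col1a2 (541 and 579) were higher in sample 4 than in sample 1. The part of meningeal tissue in the Slc6a20b values was not tested. Samples 1, 2 and 6 were the 3 highest for 2 solute carriers, Slc6a20b and Slc2a3, or 2.5%, against 4.44% of all expressed genes. In the deposited values, and with quantile normalization, Slc20a1, Slc35b1 and Slc41a1 joined them, making 5. No share of all expressed genes was counted for either setting.

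The remaining transmitter carriers had smaller ranges than Slc6a20b on the probe set kept for each gene. Slc6a6, the taurine transporter, measured 721, 572, 651, 636, 571 and 475 in samples 1 to 6, highest in sample 1 and lowest in sample 6 (1.52-fold). Its second probe set was also highest in sample 1 but lowest in sample 3. With the mean of its probe sets the log2 range of Slc6a6 was 0.84, above the 0.73 of Slc6a20b. Slc6a15, a neuronal carrier of branched-chain amino acids and proline, ran from 379 in sample 1 to 482 in sample 3 (1.33-fold). Slc1a4, the neutral amino acid transporter ASCT1, ran from 316 in sample 1 to 408 in sample 6 (1.29-fold). The creatine transporter Slc6a8 ranged 1.23-fold, and Slc1a1, the neuronal glutamate transporter EAAC1, ranged 1.19-fold, from 214 to 253. Slc6a9, the glycine transporter GlyT1, had 5 samples between 451 and 466, with sample 5 apart below them at 414. The second expressed probe set of Slc1a1 ranged 2.41-fold, and the log2 range of this gene went from 0.25 to 0.58 with the mean of its probe sets. Here and for other genes, a range cannot grow when a sample is left out, and the fall over all expressed genes was not counted. Without sample 6 the log2 range of Slc6a6 went from 0.60 to 0.34. Without sample 1 that of Slc1a4 went from 0.37 to 0.19, and without sample 5 that of Slc6a9 from 0.20 to 0.06. For Slc6a15 it went from 0.41 to 0.25 without sample 1 and to 0.22 without sample 3.

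Of the amino acid and peptide carriers 8 of 16 were expressed, with a median range of 0.38. Slc7a8, the light chain LAT2 of a neutral amino acid exchanger, was highest in sample 3 at 136 and lay between 85.3 and 103 in the others (1.69-fold). Slc7a5, the light chain LAT1 of the blood-brain barrier exchanger, was highest in the same sample at 429 and lowest in sample 4 at 344, the lowest sample of Slc7a8 as well. Their shared heavy chain Slc3a2 (CD98) did not follow them: it stood apart below in sample 1 at 790, against 887 to 966 in the other samples. Slc15a2, the peptide transporter PEPT2, ran from 72.1 in sample 1 to 97.7 in sample 3 (1.42-fold). The cationic amino acid transporter Slc7a2 ranged 1.38-fold and dipped under the array median in samples 1 and 6. The glutamine-transporter family members Slc38a2, Slc38a5 and Slc38a10 ranged 1.28-fold, 1.28-fold and 1.27-fold, with their highest values in samples 1, 6 and 2. Without sample 3 the log2 range of Slc7a8 was 0.29 in place of 0.75 and that of Slc7a5 0.23 in place of 0.40. Without sample 1 that of Slc15a2 was 0.26 in place of 0.51 and that of Slc3a2 0.09 in place of 0.28. Without sample 2 that of Slc38a5 was 0.17 in place of 0.36.

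Sugar, vitamin and lactate carriers had 5 of 13 genes expressed, with a median range of 0.40. Slc2a1, the glucose transporter GLUT1 of endothelium and glia, measured 114, 126, 135, 149, 179 and 156 in samples 1 to 6. Sample 5 was highest and sample 1 lowest (1.56-fold). Slc2a3, the neuronal glucose transporter GLUT3, measured 199, 171, 151, 154, 159 and 203, with samples 1 and 6 above the rest, so that sample 1 was lowest for one glucose transporter and near the top for the other. The second probe set of Slc2a3 had its lowest value in sample 1 and did not show this order. The endothelial marker Cldn5 was 247, 251, 176, 199, 230 and 227 in the same samples. Slc5a6, a sodium-coupled vitamin transporter, ran from 94.5 in sample 5 to 134 in sample 6. The intracellular glucose transporter Slc2a8 had sample 4 apart below at 171, with 191 to 204 elsewhere. Without sample 4 the log2 range of Slc2a8 was 0.11 in place of 0.29, and without sample 6 that of Slc5a6 was 0.33 in place of 0.51. Slc50a1, a sugar carrier of the Golgi, ranged only 1.10-fold. The monocarboxylate transporters Slc16a1, Slc16a7 and Slc16a8 stayed under the array median on every array. Bsg (basigin), a protein that brings some monocarboxylate transporters to the cell surface, measured 1580 to 1810.

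Metal carriers were measured above the array median for 12 of 16 genes, the narrowest of them being Slc11a2, the iron carrier DMT1, at 168 to 186. Slc31a1, the high-affinity copper importer CTR1, was the widest of the group. Its signal was 91.9, 89.9, 103, 140, 110 and 148 in samples 1 to 6. Samples 4 and 6 lay above the other samples. Slc31a1 was on the list of choroid plexus and meningeal carriers, of which it was the only expressed member of 6 on the array. Ttr, the transthyretin that choroid plexus epithelium secretes, measured 20.5, 44.9, 215, 1504, 482 and 1798 in samples 1 to 6, with the same 2 samples highest and the same 2 lowest. Folr1 measured 22.7, 38.9, 51.4, 123, 127 and 162, and both these markers were under the array median in samples 1, 2 and, for Folr1, 3. Of the 5 choroid plexus markers on the array these 2 were expressed, with a summed signal from 43.2 in sample 1 to 1960 in sample 6, while Kl lay above the array median in samples 4, 5 and 6 alone and Aqp1 and Cldn2 in none. The part of choroid plexus tissue in the Slc31a1 values was not tested.

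With scaling by the array median, only Slc31a1 of 8 expressed solute carriers with a second expressed probe set shared both extremes between them. This second probe set was also highest in sample 6 and lowest in sample 1. It did not show the high value of sample 4: on the log2 scale it stood at 0.25 in sample 1 and between 0.60 and 0.70 in samples 2 to 6, against 1.14 and 1.23 in samples 4 and 6 and 0.55 to 0.80 in the others for the first probe set. In the deposited values the first probe set was lowest in sample 2. Samples 4 and 6 were the 2 highest for Slc31a1, Slc35a1 and Slc39a9, or 3.75% of the expressed solute carriers, against 5.52% of all expressed genes. The count was 5 in the deposited values, with Slc39a6 and Slc3a2 added, and 5 with quantile normalization, with Slc39a6 and Slc25a39 added. For these settings the share of all expressed genes was not counted. The upstream window of Slc31a1 is shown because, with scaling by the array median, its highest and lowest samples were the same on both probe sets. With quantile normalization or no scaling this held for 0 of the 8. Capitals are as above.
Slc31a1, chr4:62360451-62360700, plus strand: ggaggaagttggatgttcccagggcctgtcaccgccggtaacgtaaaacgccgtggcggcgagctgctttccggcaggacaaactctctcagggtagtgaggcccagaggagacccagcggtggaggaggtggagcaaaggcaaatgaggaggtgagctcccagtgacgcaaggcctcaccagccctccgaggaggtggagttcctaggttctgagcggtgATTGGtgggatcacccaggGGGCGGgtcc
It held 1 CCAAT box and 1 GC box close to the start, and none of the other 3 motifs.

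**Figure D2:**
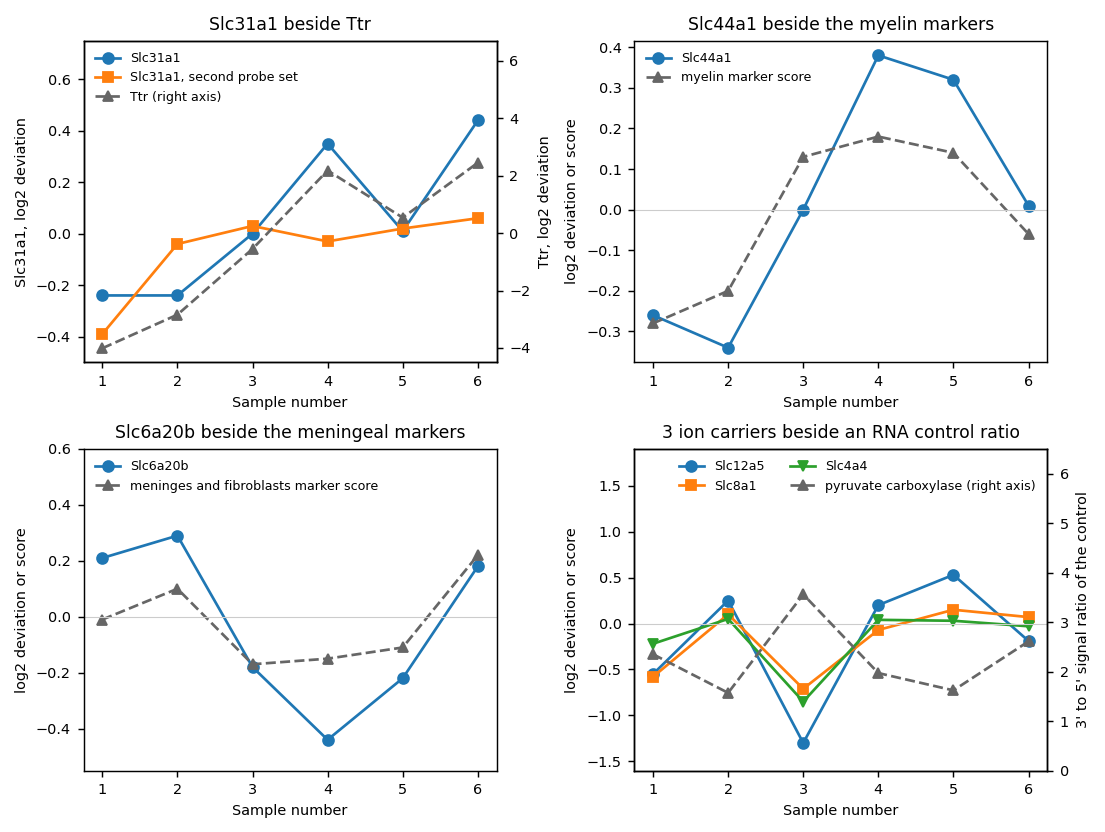
Log2 deviation from each gene's median (vertical axes) in samples 1 to 6 (horizontal axes) for solute carriers (coloured), beside the grey triangles of Ttr, the marker scores of myelin and of meninges and fibroblasts, and the pyruvate carboxylase control's 3' over 5' signal. Slc31a1 is highest in samples 4 and 6 as Ttr is, its second probe set is low in sample 1 alone, Slc44a1 and the myelin score are both highest in sample 4, Slc6a20b is high in samples 1, 2 and 6, and Slc12a5, Slc8a1 and Slc4a4 are lowest in sample 3, where the control ratio is 3.56.

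Slc30a3, the vesicular transporter ZnT3 that loads zinc into glutamatergic vesicles and is prominent in mossy fibres, measured 912, 1152, 1134, 1123, 1201 and 1069 in samples 1 to 6, lowest in sample 1 (1.31-fold). Slc39a4, a zinc importer known from the intestine and read by a probe set whose name marks lower specificity, likewise had its lowest value, 253, in sample 1, and its highest, 359, in sample 6. Slc39a9 measured 88.7 in sample 5, its lowest, and 125 in sample 6, its highest (1.41-fold). Slc30a9 had sample 2 apart above at 193, with 145 to 159 elsewhere. Without sample 1 the log2 ranges of Slc30a3 and Slc39a4 were 0.16 and 0.22 in place of 0.39 and 0.51. Without sample 2 that of Slc30a9 was 0.14 in place of 0.45, and without sample 5 that of Slc39a9 was 0.31 in place of 0.50. The zinc carriers Slc30a4, Slc39a1, Slc39a3, Slc39a6 and Slc39a7 and the magnesium carrier Slc41a1 ranged between 1.18-fold and 1.36-fold.

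Mitochondrial carriers formed the role group with the most expressed genes, 15 of 20, and held both the widest and the steadiest solute carrier. Slc25a45, a member of this family, measured 82.0, 25.4, 26.2, 71.6, 86.4 and 105 in samples 1 to 6. Samples 2 and 3 lay far under the array median, and samples 1, 4, 5 and 6 just above it. The range of 4.05-fold became 1.68-fold once low values were raised to the median, since a value below the median is not shown to be above background. Slc25a39, a carrier linked to mitochondrial glutathione, measured 378 to 394 and ranged 1.07-fold. Slc25a4, the ADP/ATP carrier ANT1 of heart, muscle and brain, measured 3628, 3341, 3559, 3138, 3211 and 3100 (1.20-fold). Its paralog Slc25a5, the ADP/ATP carrier ANT2, measured 525, 418, 571, 500, 463 and 518 on a probe set whose name marks a shared family sequence, with sample 2 lowest. The second expressed probe set of Slc25a5 instead had sample 3 lowest and sample 6 highest.

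Sample 3 was highest for 8 of the 15 mitochondrial carriers (53.3%, against 31.1% of all expressed genes). In the deposited values it was highest for 5 (33.3%, against 19.1%), and the span of the group score over the samples was 0.13 on the log2 scale in place of 0.21. Slc25a17, a peroxisomal carrier of cofactors, ran from 345 in sample 4 to 510 in sample 3 (1.56-fold). Slc25a28, mitoferrin 2 of iron import, ran from 167 in sample 6 to 247 in sample 3 (1.55-fold), and Slc25a51, the NAD carrier, from 171 in sample 2 to 240 in sample 3 (1.44-fold). Without sample 3 the log2 ranges were 0.41 in place of 0.64 for Slc25a17, 0.38 in place of 0.64 for Slc25a28 and 0.35 in place of 0.53 for Slc25a51, and without sample 4 that of Slc25a17 was 0.40. The range of Slc25a5 likewise went from 0.48 to 0.29 without sample 3. The second probe set of Slc25a51 was highest in sample 4 and did not show the high value of sample 3. Among the others Slc25a14, Slc25a15 and Slc25a25 ranged between 1.33-fold and 1.39-fold, and the carriers of citrate (Slc25a1), oxoglutarate (Slc25a11) and acylcarnitine (Slc25a20), with Slc25a36 and Slc25a44, at most 1.21-fold.

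Nucleoside and nucleotide sugar carriers had 10 of 14 genes expressed and a median range of 0.46. Slc29a1, the nucleoside transporter ENT1 that clears adenosine, measured 139, 91.6, 89.4, 101, 97.0 and 77.8 in samples 1 to 6. Sample 1 was the high one, and without it the range dropped from 0.84 to 0.36 on the log2 scale. The second probe set of Slc29a1, which stayed under the array median, was highest in sample 6. Slc35e4 ran from 86.5 in sample 3 to 147 in sample 4 (1.61-fold). Slc35a1, the CMP-sialic acid transporter of the Golgi, was highest in sample 6 at 91.8 and lowest, at 58.9 and so under the array median, in sample 5 (1.56-fold, or 1.46-fold with the low value counted at the median). Slc35b1, a carrier of the endoplasmic reticulum, had sample 1 apart above at 834, with 607 to 664 in the other 5 samples. Slc35e1 ranged 1.39-fold, and without sample 6 its log2 range was 0.20 in place of 0.48 and that of Slc35a1 was 0.43 in place of 0.65. The carriers Slc35b2, Slc35c2, Slc35d1, Slc35g3 and Slc37a4 ranged between 1.13-fold and 1.37-fold.

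Carriers of organic ions, lipids, phosphate and vitamins had 14 of 33 genes expressed, with 6 ranges over 0.5 (42.9%, against 33.8% of all expressed genes). Slc48a1, the haem transporter HRG1, measured 168, 111, 171, 106, 95.8 and 99.0 in samples 1 to 6. Samples 1 and 3 lay together above the other samples, with no value between 111 and 168 (1.87-fold). Slc27a1, the fatty acid transport protein FATP1, measured 188, 215, 281, 183, 169 and 228, highest in sample 3 (1.75-fold). Without that sample its range was 0.44 on the log2 scale in place of 0.81. Slc10a3, an orphan of the bile acid carrier family, measured 92.0, 42.7, 74.6, 61.6, 62.4 and 80.2, with 3 samples under the array median. Its range was 2.10-fold, or 1.46-fold with these counted at the median. On the log2 scale it was 1.07, and without sample 2 it was 0.59 and so no longer over 1.

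Slc44a1, the choline transporter-like protein CTL1, which is known from oligodendrocytes among other cells, measured 86.8, 80.6, 99.5, 136, 131 and 105 in samples 1 to 6 (1.64-fold). Samples 1 and 2 were the lowest and samples 4 and 5 the highest. The 7 expressed myelin markers, all of those on the array, scored -0.28, -0.20, 0.13, 0.18, 0.14 and -0.06, with the same 2 samples at each end. At the upper end sample 3 lay close, and single markers differed. Mag and Mog were highest in sample 3 (527 and 209) and Mobp in sample 6, while 2 markers were highest in sample 4 and 2 in sample 5. The summed myelin signal ran from 4712 in sample 1 to 6542 in sample 5. The 4 expressed thalamus and habenula markers of 5, which a wider dissection would bring in, scored -0.32, -0.09, 0.01, 0.25, 0.19 and 0.06. In this score too samples 1 and 2 were lowest and samples 4 and 5 highest. Among its single markers only Prkcd had this order. After scaling, samples 1 and 3 were lowest for Lef1 and Rgs16, and Tcf7l2 was lowest in sample 4 (153.8). The 8 expressed hippocampal neuron markers also scored highest in samples 4 and 5 (0.17 and 0.13), but lowest in samples 1 and 3 (-0.27 and -0.13). Slc44a1 was the only solute carrier with samples 4 and 5 highest and samples 1 and 2 lowest, a pattern counted after its values were seen that held for 0.868% of all expressed genes, and it kept this order in the deposited values and with quantile normalization. The part of white matter or thalamus in these values was not tested.

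Slc22a12, of the urate carrier family, ran from 97.5 in sample 6 to 157 in sample 1 (1.61-fold), and Slc23a3, on a probe set whose name marks lower specificity, from 180 in sample 4 to 248 in sample 3 (1.46-fold). Slc22a18 had sample 3 apart below, under the array median at 51.9, with 69.9 to 77.2 elsewhere. The reduced folate carrier Slc19a1, on a probe set whose name marks a shared family sequence, had sample 3 apart above at 99.9, with 94.3 or less elsewhere. Its other probe set was also highest in sample 3, but its median lay under the array median and it ranged 5.62-fold. Little difference was seen in Slc66a2 (1.15-fold) and Slc44a4 (1.16-fold), and the same held for Slc23a2, the ascorbate transporter SVCT2 that supplies neurons with vitamin C, at 416 to 500 (1.18-fold), Slc22a17, the brain-type organic cation transporter known as the lipocalin 2 receptor, at 2588 to 2984 (1.22-fold), and the phosphate transporter Slc20a1 at 335 to 405 (1.24-fold).

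**Figure D3:**
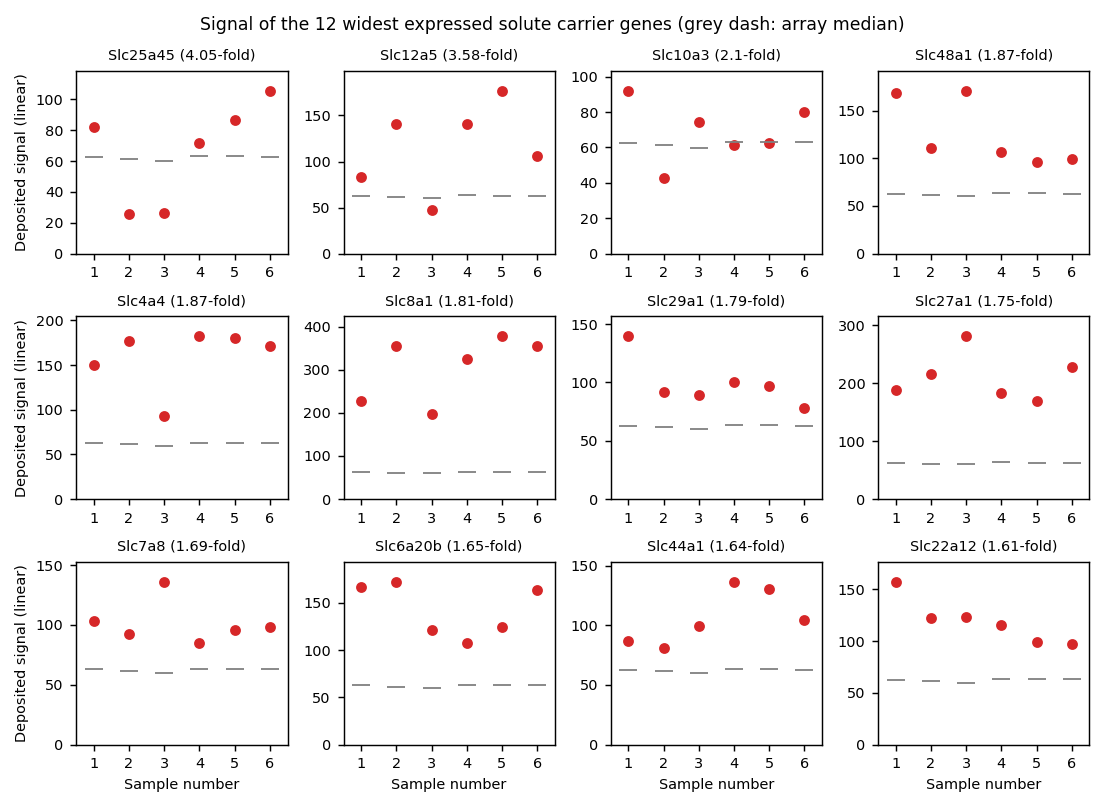
Deposited signal (linear, vertical axes starting at 0) in samples 1 to 6 (horizontal axes) for the 12 expressed solute carriers with the largest range, 1 red point a sample, with the array median as a grey dash. Slc25a45 and Slc10a3 cross the array median, Slc12a5 falls below it in sample 3 only, and the other 9 stay above it in every sample.

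**Figure D4:**
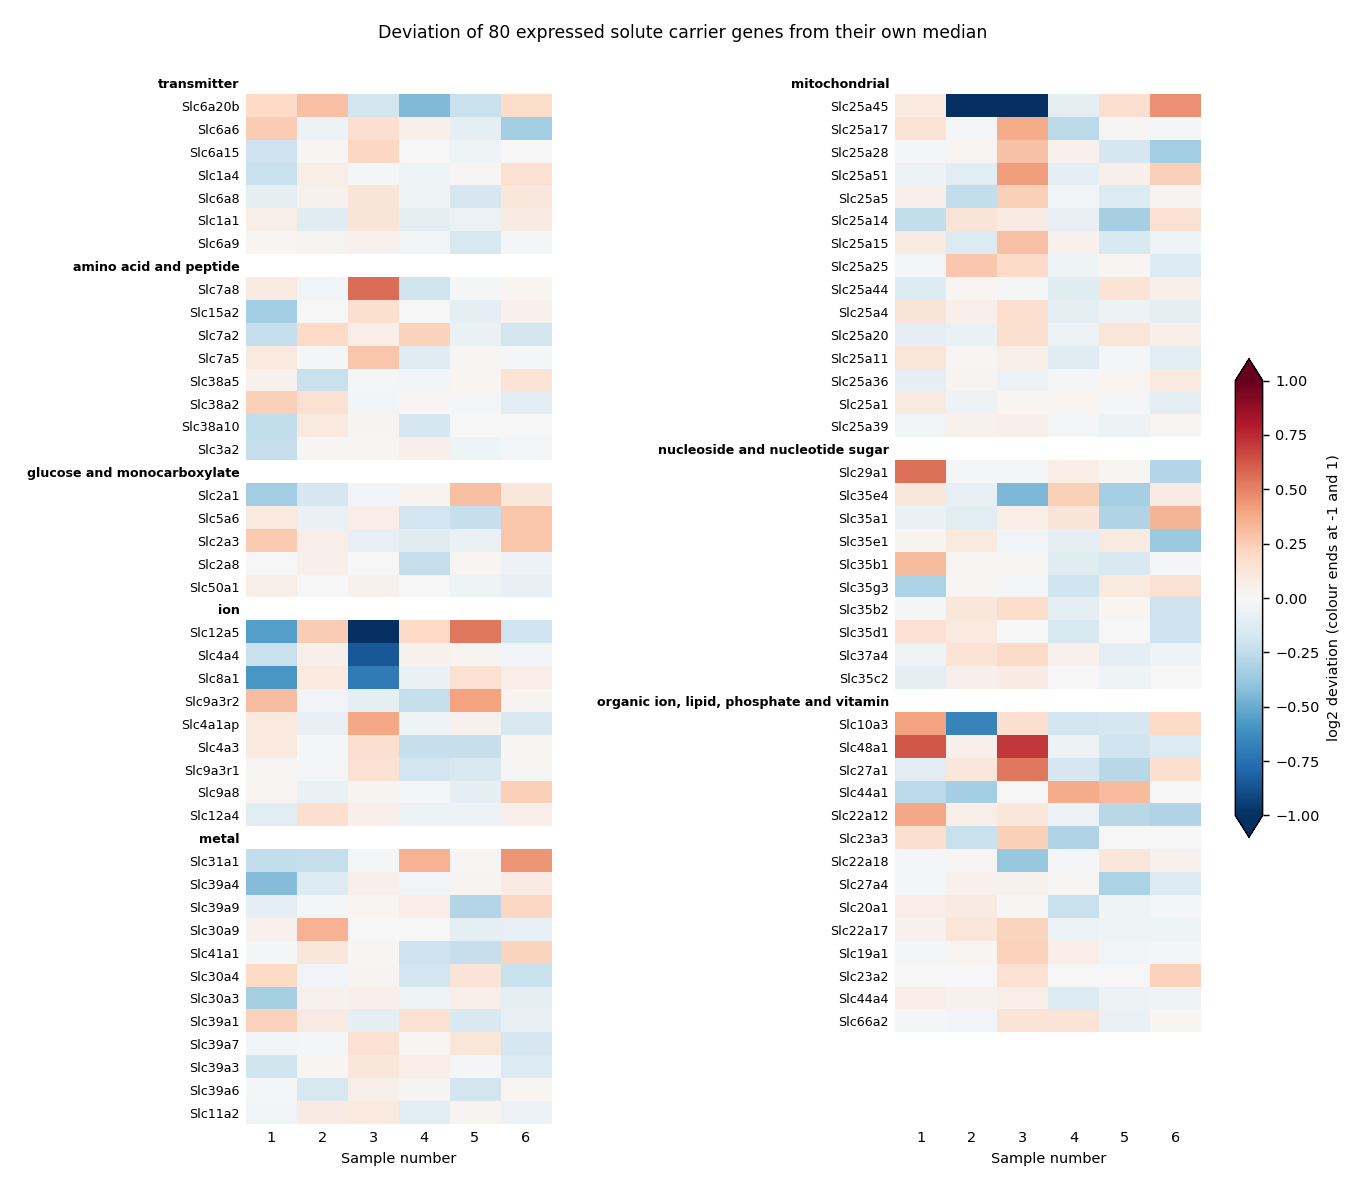
Log2 deviation of each of the 80 expressed solute carriers from its own median (colour, red above and blue below) in samples 1 to 6 (columns), in 8 role groups ordered by range. Among the strongest colours are those of Slc25a45, Slc12a5, Slc4a4, Slc8a1, Slc10a3 and Slc48a1, and most other cells are pale.

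Single samples stood apart in 9 of the 80 expressed solute carriers, or 11.2%, against 5.89% of all expressed genes. Apart means here that the gap from an extreme sample to its neighbour, as a share of the range, exceeded the critical value of Dixon's outlier test, used as a description. They were Slc4a4 and Slc22a18 (sample 3 below), Slc19a1 (sample 3 above), Slc3a2 (sample 1 below), Slc35b1 (sample 1 above), Slc30a9 (sample 2 above), Slc2a8 (sample 4 below), Slc6a9 (sample 5 below) and Slc9a8 (sample 6 above). The sample differed from gene to gene. Sample 3 stood apart for 3 genes (3.75%, against 1.28% of all expressed genes) and sample 1 for 2 (2.5%, against 1.69%). Samples 2, 4, 5 and 6 did so for 1 gene each (1.25%, against 0.62%, 0.847%, 0.889% and 0.558%). The count was 5 with quantile normalization and 2 without sample 2, 3 without sample 3 and 4 without sample 5, with the critical value for 5 samples. The shares of all expressed genes under these changes were not counted.

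Sample 3 was the highest for 30 of the 80 genes (37.5%, against 31.1% of all expressed genes) and the lowest for 5 (6.25%, against 11.1%). In the deposited values, without scaling by the array median, it was the highest for only 18 (22.5%, against 19.1%), and its array median, 59.9, was the lowest of the 6, which ran up to 63.3. Sample 5 was the lowest for 21 genes (26.2%, against 20%), and for 15 in the deposited values (18.8%, against 17.3%). Sample 6 was the highest for 15 (18.8%, against 11.4%), and for 18 in the deposited values (22.5%, against 14.5%). Sample 1 was the lowest for 18 (22.5%, against 21.6%), and for 14 in the deposited values (17.5%, against 19.7%).

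**Figure D5:**
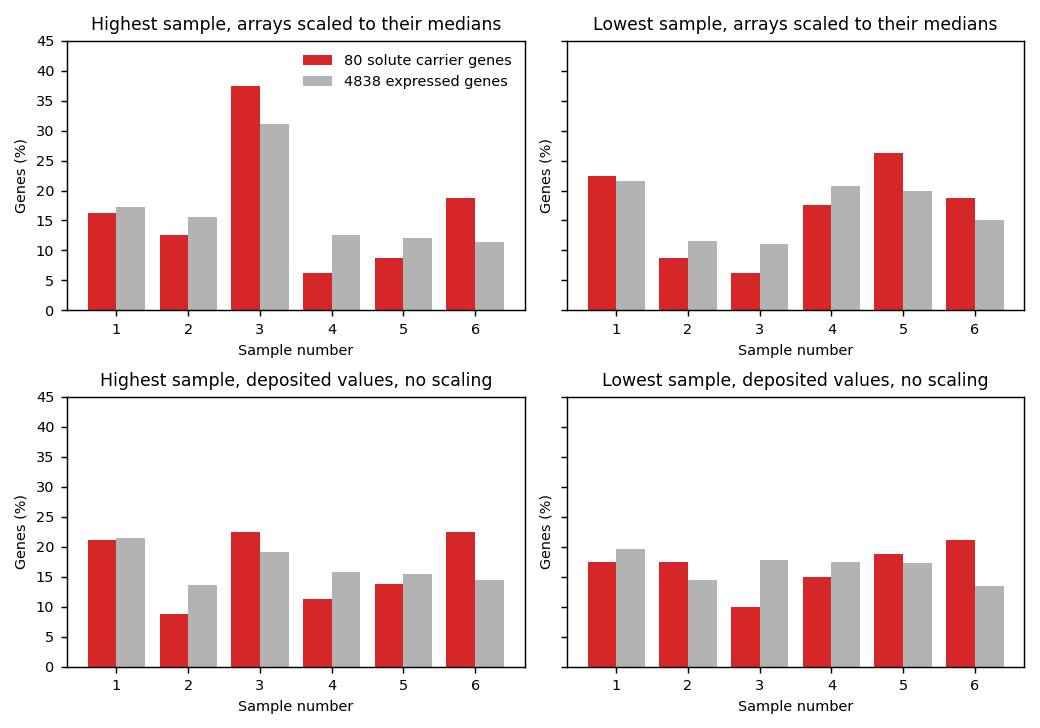
Percentage of genes (vertical axes) whose highest (left) or lowest (right) value fell in each sample (horizontal axes), for 80 expressed solute carriers (red bars) and all 4838 expressed genes (grey bars), with arrays scaled to their medians (top) and in deposited values (bottom). Sample 3 is highest for 37.5% of the solute carriers with scaling and for 22.5% without.

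Grouped by the cell type they are known from, the carriers showed the same small differences. The 6 expressed neuronal carriers of 8 on the array (Slc12a5, Slc2a3, Slc6a15, Slc8a1, Slc1a1 and Slc30a3) had scores of -0.27, 0.06, -0.01, -0.06, 0.01 and 0.04 in samples 1 to 6, and sample 1 was also low for the hippocampal neuron markers (-0.27, 0.04, -0.13, 0.17, 0.13 and -0.06). The 5 expressed astrocyte carriers of 6 (Slc1a4, Slc4a4, Slc6a9, Slc15a2 and Slc27a1) had scores of -0.22, 0.05, 0.04, -0.03, -0.10 and 0.04, against -0.08, 0.02, 0.16, -0.02, 0.01 and -0.06 for the 6 astrocyte markers. The 4 expressed blood-brain barrier carriers of 6 (Slc2a1, Slc7a5, Slc3a2 and Slc38a5) kept within scores of -0.09 and 0.05, while the 2 expressed endothelial markers of 8 ran from -0.30 in sample 3 to 0.31 in sample 1. None of the 4 monoamine and cholinergic carriers on the array (Slc6a2, Slc6a3, Slc6a4 and Slc18a3), which belong to projections from other brain regions, lay above the array median by its median value. The 5 expressed microglia markers of 6 kept within -0.10 and 0.08. In bulk tissue, fewer cells of a type and less RNA per cell cannot be told apart.

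Partners of the carriers, the sodium pump subunits and modulators, chaperones, regulating kinases, an organic anion carrier and glutamine synthetase, were listed separately, and 13 of 25 were on the array, all of them expressed. Their median range was 0.41. None had a range over 1 (against 4.13% of all expressed genes) and 5 had a range over 0.5 (38.5%, against 33.8%). Fxyd7, a brain modulator of the sodium pump, ran from 166 in sample 5 to 280 in sample 3 (1.77-fold), and Slco3a1, an organic anion carrier, from 98.3 in sample 1 to 176 in sample 5 (1.78-fold). Wnk1, the kinase that acts on chloride cotransporters such as KCC2, measured 393, 539, 424, 475, 469 and 608, lowest in samples 1 and 3 as Slc12a5 was, but not highest in sample 5. Its partner kinase Stk39 (SPAK) was highest in sample 3. The pump beta subunits Atp1b1, Atp1b2 and Atp1b3 ranged 1.31-fold, 1.41-fold and 1.16-fold, and Glul, glutamine synthetase of astrocytes, ranged 1.28-fold.

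Further probe sets of a gene often had other extremes. Of the 80 expressed solute carriers, 22 had more than 1 probe set and 8 had a second expressed one. With scaling by the array median only 1 of these 8, Slc31a1, shared the highest sample between its probe sets, and it shared the lowest as well. Among 705 genes with such pairs on the array, 24.7% shared the highest, 24.4% the lowest and 7.66% both. The other 7 were Slc11a2, Slc1a1, Slc23a3, Slc25a1, Slc25a5, Slc25a51 and Slc2a3, in which neither extreme was shared with this scaling. With quantile normalization, and again with no scaling, 2 of the 8 shared the highest sample, 0 the lowest and 0 both. The second probe set of Slc1a1, wider than the first, was lowest in sample 1. With the mean of a gene's probe sets the log2 range was smaller for Slc29a1 (0.39 in place of 0.84), Slc23a3 (0.29 for 0.54), Slc25a51 (0.27 for 0.53), Slc2a3 (0.18 for 0.40) and Slc6a8 (0.17 for 0.30). It was larger for Slc25a5 (0.73 for 0.48), Slc6a6 (0.84 for 0.60), Slc8a1 (1.04 for 0.86) and Slc25a1 (0.29 for 0.20), and for Slc1a1 as given above. For Slc8a1 both further probe sets lay under the array median, and the brighter of them was, like the first, highest in sample 5 and at the floor in samples 1 and 3. The wide solute carriers Slc12a5, Slc4a4, Slc44a1, Slc6a20b, Slc48a1 and Slc27a1 had a single usable probe set each.

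The other 66 solute carriers had a median under the array median, so their values are not shown to be above background. Of these, 61 lay under it in all 6 samples, and 36 had at least 1 sample at the floor of 0.2 of the array median. They include carriers known mainly from kidney, gut or liver, such as Slc34a1, Slc5a1 and Slc10a1, and some known from brain, such as Slc7a11 of cystine import, Slc4a8 and Slc16a1. The 5 that lay above the array median in single samples were Slc25a53, Slc6a18, Slc30a5, Slc1a6 and Slc38a4. Slc25a53 measured 68.7, 78.2, 60.5, 51.2, 53.4 and 36.5 in samples 1 to 6. Slc30a5, a zinc carrier of the Golgi, measured 64.8, 67.9, 44.8, 60.3, 51.1 and 60.4.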

How the data were processed

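Total RNA from 6 hippocampus samples was measured on 12488 probe sets per array, 66 of them controls. Per the deposited table, values are the authors' signal intensity of each probe set. The scanner, summary method, scaling and build were not given in the sources used here. Precision is limited by the small number of arrays. Genes come from the platform annotation. All 146 member genes matched the mouse RefSeq gene table (GRCm38.p6) by identifier, with 0 symbols changed. Signals were divided by the array's median without control features, raised to a floor of 0.2 where lower, and turned to log2 (Python 3.11.15, pandas 2.3.3, numpy 2.4.6). Detection calls were not used here. Ranges, extremes and scores were computed for all genes, and the code was checked on simulated arrays. Genes were named by rule: a range over 1, the 4 widest per role group, all expressed transmitter carriers and listed carriers by cell type, genes with a second expressed probe set, and 3 dim genes of the highest single value. Others are named for a pattern seen in their values. The members and lists were chosen with earlier results of these data known. All 6 samples are without a group, so no test and no mean ± SD was computed. Alternatives were quantile normalization, no scaling, other floors, filters and probe set rules, and leaving out each sample.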

Additional observations from a re-analysis of the deposited data

How the results depend on the processing

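The count of 80 expressed solute carriers was 146 without an expression filter and 37 when the level had to pass the 75th percentile. It was 72 with the mean of a gene's probe sets and 79 to 81 without single samples. The 3 ranges over 1 became 1 (Slc12a5) with low values raised to the array median and 25 without a filter. They became 0 under the stricter filter and 2 to 4 without single samples. With the mean of probe sets there were 4, as the range of Slc8a1 went from 0.86 to 1.04. The 26 ranges over 0.5 became 69 with no filter, 7 with the stricter filter and 16 to 26 without single samples, the 16 being without sample 3. The 9 genes with 1 sample apart became 5 with quantile normalization, 23 with no filter, 4 with the stricter filter and 2 to 7 without single samples. Sample 3 was highest for 19 genes with quantile normalization and 18 with no scaling, in place of 30, and it led 3 and 2 of the 8 role group scores in place of 5. The median range of 0.41 lay between 0.35 and 0.40 without single samples. Of 42 named ranges none moved by more than the gene's own SD over the samples with quantile normalization, no scaling or no floor, 2 did with low values raised to the array median (Slc10a3 and Slc25a45) and 9 with the mean of probe sets. Without single samples 2 to 9 did, with 9 without sample 3 and 7 without sample 1. A gene's range can only stay or fall when a sample is left out or low values are raised to the array median. The cause of the other changes was not tested, apart from filters, which change the genes counted. Shares of all expressed genes were counted under the main settings only, except for the highest and lowest samples in the deposited values. No paired analysis was possible because the labels give no groups.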

Other observations

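Among the dim solute carriers, whose values are not shown to be above background, Slc4a5, a sodium-bicarbonate cotransporter known from the choroid plexus, measured 1.69, 0.845, 5.76, 19.8, 11.7 and 32 in samples 1 to 6, against an array median of 59.9 to 63.3. Its order over the samples was that of Ttr, except that samples 1 and 2 changed places. Slc6a18, an amino acid carrier known from kidney, measured 19.5, 18.8, 26.4, 67.1, 71.5 and 60.8, with samples 4, 5 and 6 all above samples 1, 2 and 3. Slc10a6, a carrier of sulphated steroids, measured 58.2, 22.1, 19.97, 15.3, 36.8 and 39.9. These genes were picked after their values were seen.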
